A study of Mus musculus with 41 samples.

Results

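The 41 sequenced mouse endometriosis lesions differed widely in how much epithelial RNA they held, and 24 of them, the 12 richest and the 12 poorest in epithelial transcripts, are compared here. The lesions of each side were chosen by a score read from the libraries themselves, the mean of log2(CPM + 1) over the keratin genes Krt8, Krt18 and Krt19 and the adhesion genes Epcam and Cdh1, where CPM is a gene's count scaled to a library total of 1000000 counts. The 12 highest scores formed the epithelium-rich side and the 12 lowest the epithelium-poor side, and 17 lesions fell between them. Because the same libraries set the sides, differences between rich and poor lesions are descriptions and carry no p-value, and the 5 score genes are left out of the results.

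The lesions came from a transplantation model in which a 4 mm uterine punch was glued to the inner abdominal wall of mice aged 12 to 16 weeks. From day 7 the recipients were given 3 injections of 1 µg interleukin-33 (IL-33), or PBS, into the peritoneal cavity over 6 days. IL-33 is an alarm cytokine that activates group 2 innate lymphoid cells (ILC2s), and the design varied the genotypes of fragment and recipient in their ability to make these cells. Wild-type C57Bl/6J mice, Id2fl/fl mice (floxed controls) and Nmur1iCre-eGFP mice (Cre controls) were ILC2-competent, and mice with both alleles (Nmur1iCre-eGFP Id2fl/fl) lacked ILC2s by design because Nmur1 drives the Cre in these cells. Each of these 4 genotypes received IL-33 (n = 4 per group). A further deficient group received PBS in place of IL-33, another is labelled as treated with both IL-33 and PBS (here called added PBS), and another was given 250000 ILC2s by transfer before IL-33 (n = 4 each). A smaller transfer of 120000 ILC2s preceded IL-33 in deficient (n = 2) and wild-type (n = 3) mice. Genotypes were crossed in 2 groups with IL-33, in which deficient recipients carried Cre-control fragments or Cre-control recipients carried deficient ones (n = 4 each). A whole lesion mixes graft, ingrown host cells and attached body wall, so fewer cells of a type and less RNA per cell cannot be told apart in these bulk libraries.

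As background, the endometrium is lined by a luminal epithelium that is continuous with tubular glands, on a stroma of fibroblasts, vessels and immune cells with smooth muscle beneath. Epithelial cells are held together by tight junctions, adherens junctions and desmosomes, and their identity is kept by transcription factors such as GRHL2 and OVOL2 and by the splicing factors ESRP1 and ESRP2. The repressors ZEB1, ZEB2, SNAI1 and SNAI2 bind E-box sequences and silence epithelial genes in mesenchymal cells. Estrogen and progesterone act on epithelium and stroma through receptors encoded by Esr1 and Pgr and control secretory proteins such as lactoferrin.

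The score ran from 5.23 to 7.86 (median 6.09) on the rich side, from 3.96 to 5.20 (median 4.90) between the sides and from 1.54 to 3.90 (median 2.61) on the poor side. The step at the rich threshold was small: the lowest rich lesion, deficient with PBS replicate 2, had 5.23 and the next lesion, replicate 1 of the same group, had 5.20. At the poor threshold the last lesion left out, deficient with 250000 ILC2s replicate 2, had 3.96 and the first poor lesion, deficient with PBS replicate 3, had 3.90. Library totals overlapped, with 28.9 to 58.5 mega-counts on the rich side and 36.8 to 48.1 on the poor side. Liver transcripts stood out in 4 libraries, in which a list of 16 hepatocyte genes took 3.11% to 11.9% of all counts against at most 0.108% in any other library, and 3 of these 4 lay on the rich side. Hepatocytes contain Krt8 and Krt18. In the liver-bearing wild-type lesion with 120000 ILC2s (replicate 3), Krt8 was 121 CPM and Krt18 141.1 CPM, while Krt19 at 11.7 CPM and Epcam at 7.81 CPM lay inside the poor range, which reached 23.7 and 12.1 CPM. That lesion is epithelium-rich by the rule and not by Krt19 or Epcam. Each result below was therefore also computed without the 3 liver libraries, which leaves 9 rich and 12 poor lesions.

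**Figure D1:**
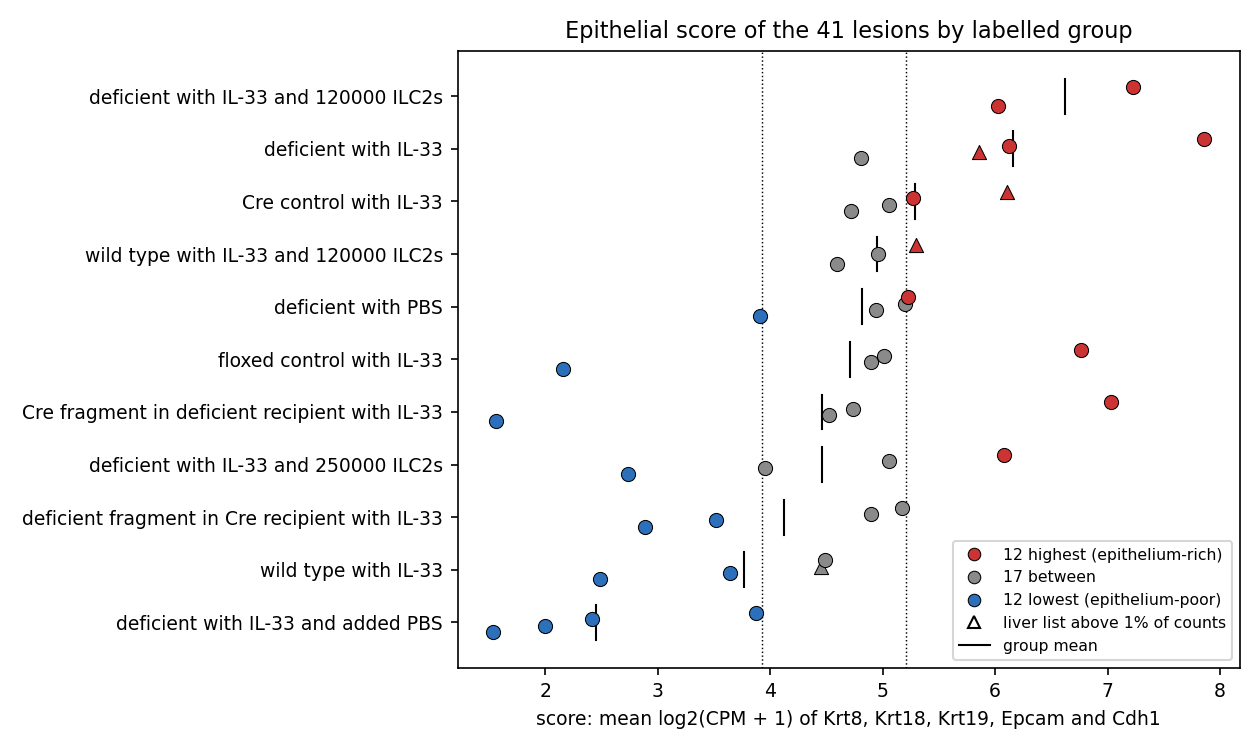
Each point is the epithelial score, the mean log2(CPM + 1) of 5 genes, of one of the 41 lesions, with labelled groups on the vertical axis ordered by their mean (black bars), dotted lines at the 2 thresholds and triangles for libraries with more than 1% liver transcripts. The rich lesions (red) come from 8 groups and the poor lesions (blue) from 7, and 4 groups hold 1 of each.

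Both sides drew from many groups. The rich side held both deficient lesions with 120000 ILC2s, 3 of 4 deficient lesions with IL-33, 2 of 4 Cre controls and 1 lesion each from the wild type with 120000 ILC2s, the deficient PBS group, the floxed controls, the Cre-control fragments in deficient recipients and the deficient lesions with 250000 ILC2s. All 4 deficient lesions with IL-33 and added PBS were on the poor side, together with 2 of 4 wild-type lesions with IL-33, 2 of 4 deficient fragments in Cre-control recipients and 1 each from the deficient PBS group, the floxed controls, the Cre-control fragments in deficient recipients and the deficient lesions with 250000 ILC2s. These last 4 groups each gave 1 rich and 1 poor lesion under one treatment label. The floxed controls ran from 2.15 to 6.76 and the Cre-control fragments from 1.56 to 7.03, so 2 lesions with the same label lay far apart on the scale.

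Whether the score followed the design, which the rule did not use, was tested in 3 ways, with p-values adjusted over the 3 by the Benjamini-Hochberg method. The first test pooled labelled groups by recipient, so lesions of the crossed groups were placed by recipient and not by fragment. Its group means ran from 2.45 to 6.16 in deficient and from 3.77 to 5.29 in competent recipients, a spread the pooled means do not show. Among IL-33-treated lesions without transferred cells, the score averaged 4.36 ± 2.14 (SD, n = 12) in deficient and 4.47 ± 1.25 (n = 16) in competent recipients, a difference of -0.111 (two-sided permutation test, p = 0.863, adjusted 0.863). Its sign turned when 1 of 5 lesions was left out, with values of 0.0418 without floxed control 2, 0.143 without Cre-control fragment 1, and 0.146, 0.104 and 0.0658 without lesions 1, 2 and 4 of the added-PBS group. Without the 4 liver libraries the recipient difference was -0.131 (permutation test, adjusted p = 0.85). Over all 11 groups the F statistic was 2.59 (permutation test, p = 0.022, adjusted 0.066). It was 2.18 without the 4 liver libraries (permutation test, adjusted p = 0.16). With 1 lesion left out its adjusted p went as high as 0.171, at an F of 2.05 without added-PBS lesion 1. The permutation test passed the threshold when 1 of 8 lesions was left out: deficient with IL-33 3 (adjusted p = 0.0429), floxed control 2 (0.0349) or 3 (0.0192), Cre-control fragment 1 (0.0157) or 3 (0.0196), added PBS 3 (0.0457), or 250000 ILC2s 3 (0.0495) or 4 (0.046). Deficient lesions scored 6.16 ± 1.27 with IL-33 and 4.82 ± 0.62 with PBS (n = 4 each), a difference of 1.34 that did not pass (two-sided exact permutation test, p = 0.114, adjusted 0.171; the smallest p possible is 0.0286). Without deficient lesion 3 with IL-33, that difference was 1.80 (exact permutation test, adjusted p = 0.0429). That lesion scored lowest in its group, and every remaining IL-33 lesion lay above every PBS lesion, so the unadjusted p was the smallest possible. Without the liver libraries the difference was 1.45 (exact permutation test, adjusted p = 0.214). Without deficient lesion 4 with IL-33 it was 0.777 (exact permutation test, adjusted p = 0.386). The added-PBS lesions, which were also deficient and given IL-33, scored 2.45 ± 1.01 (n = 4), below the PBS group, so the direction turned with the IL-33 group that was set against PBS. That second difference was not tested.

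Across 21244 genes, 3229 (15.2%) were called higher and 1221 (5.75%) lower in rich lesions, where called means an adjusted p under 0.05 in edgeR's quasi-likelihood test, used here as a cut on size against spread. All 12 rich lesions lay above all 12 poor ones for 0.664% of genes and below them for 1 gene (0.00471%). Without the liver libraries 2202 genes (10.4%) were called higher and 694 (3.27%) lower, and 400 genes (1.88%) separated the sides upward and 1 (0.00471%) downward. A fit over all 41 libraries with side (rich, between or poor) and labelled group as terms, here called within groups, called 1964 higher (9.24%) and 1533 lower (7.22%). Only 4 groups held both a rich and a poor lesion, so other groups entered indirectly through their lesions between the sides. The added-PBS group, all poor, and the deficient group with 120000 ILC2s, all rich, added nothing to this difference. Higher genes were thus 72.6% of the calls between the sides and 56.2% of the calls within groups. Of the 3229 genes, 1989 were called higher without liver and 1756 within groups, and of the 1221 lower genes 531 and 785 were. The shares above are the background for every count that follows, and the counts are descriptions. Some genes belong to several lists, so the counts of different lists are not independent. Levels below are the lowest, highest and median library of a side, differences are rich minus poor on the log2 scale ± SE (12 against 12 lesions), and a named gene kept its call without the liver libraries and within groups unless its sentence says otherwise.

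**Figure D2:**
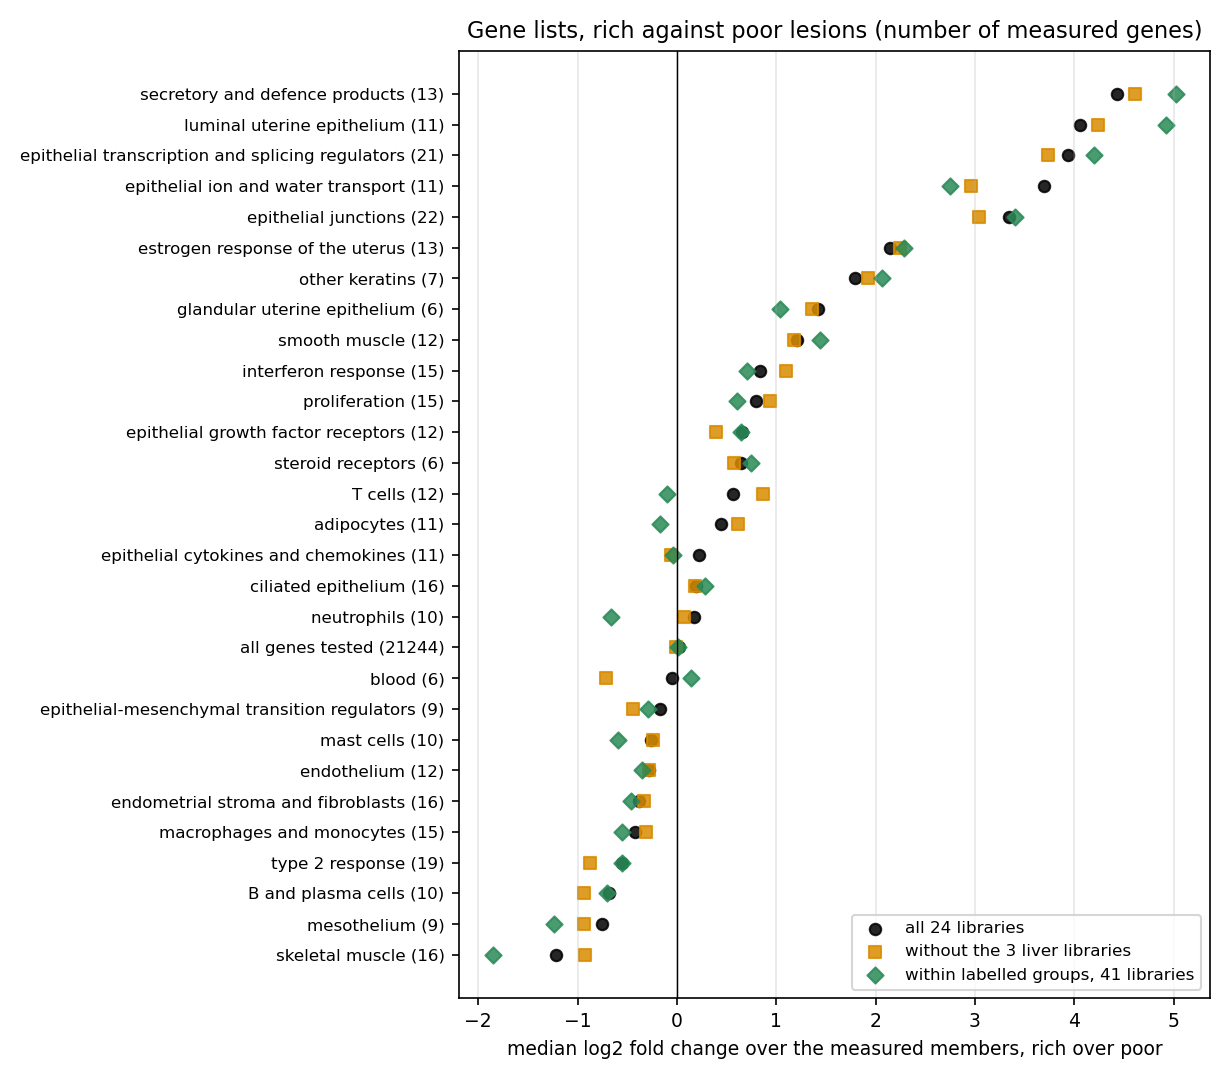
The median log2 difference, rich over poor, of the measured genes of each list drawn is shown, with all 21244 genes near 0. Symbols mark all 24 libraries (black circles), the fit without the 3 liver libraries (orange squares) and that within labelled groups (green diamonds). Liver, gut and urothelium lists are not drawn. The liver list had a median of 13.15 with 16 of 16 genes higher, and of 0.51 with 0 called without the liver libraries. The gut median was 4.5, and 1.75 without liver. Lists of epithelial products, regulators, transport and junctions lie to the right, with medians from 3.34 to 4.43 in the 24 libraries, and skeletal muscle lies farthest left at -1.22.

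Junction genes followed the score genes closely: 20 of 22 were called higher and none lower, with a median log2 difference of 3.34 against 0.026 over all genes, and 9 of them did not overlap between the sides. Tight junctions seal the space between epithelial cells. Their scaffold gene Tjp3 stood at 14.2 to 96.8 CPM (median 30.2) in rich lesions and 1.16 to 6.39 CPM (median 2.18) in poor ones, a difference of 3.79 ± 0.32 with every rich lesion above every poor one. The claudin gene Cldn3 ranged over 8.37 to 54.7 CPM (median 27.6) against 0.151 to 3.55 CPM (median 0.373) (4.66 ± 0.58), again with no overlap. Cldn7 ranged over 3.98 to 149 CPM (median 46.2) against 0.0779 to 6.32 CPM (median 0.601) (5.18 ± 0.68), and Cldn4 over 1.52 to 33.6 CPM (median 12.3) against 0.0252 to 2.69 CPM (median 0.496) (3.75 ± 0.60). These 2 claudins overlapped only through the liver-bearing rich lesions, because without them the sides separated. Cgn, which encodes the junction protein cingulin, was 6.55 to 34.6 CPM (median 16.1) against 0.630 to 4.47 CPM (median 1.43) (3.30 ± 0.36), and the transmembrane protein gene Marveld3 was 1.50 to 10.6 CPM (median 3.60) against 0.0416 to 1.39 CPM (median 0.280) (3.39 ± 0.43).

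Desmosomes, which couple cells to keratin filaments, showed a split by family member. The plaque gene Dsp separated the sides completely, with 38.5 to 229 CPM (median 97.0) in rich and 0.665 to 17.2 CPM (median 2.10) in poor lesions (4.44 ± 0.54). Dsc2, a desmosomal cadherin gene, was 2.48 to 114 CPM (median 16.3) against 0.223 to 7.24 CPM (median 0.455) (4.71 ± 0.76), and 3.85 ± 0.68 without the liver libraries. Dsg2, its partner cadherin gene, differed by 1.56 ± 0.40, and by 0.72 ± 0.30 and no longer called without the liver libraries. Jup, which encodes plakoglobin and is also found in other junctions, was not called (0.19 ± 0.12), nor was the P-cadherin gene Cdh3 (-0.53 ± 0.23). The membrane-bound protease gene St14 was 7.23 to 151.5 CPM (median 52.8) against 1.75 to 12.7 CPM (median 2.79) (3.82 ± 0.43). Its inhibitor gene Spint2 was 52.8 to 167 CPM (median 88.4) against 10.4 to 31.5 CPM (median 21.4) (2.26 ± 0.22) with no overlap, and Prss8, another protease of this system, was 2.92 to 10.5 CPM (median 5.30) against 0.0223 to 1.54 CPM (median 0.147) (3.98 ± 0.55), also with no overlap. F11r, an adhesion gene also found in endothelium and leukocytes, differed by 0.61 ± 0.15 and was not called within groups (0.54 ± 0.21).

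Promoters of genes that separated the sides were compared with all promoters because the repressors of epithelial genes bind E-boxes. RefSeq promoters (GRCm38.p6, 250 bases before to 50 after the annotated start) matched 13407 of the 21244 genes. The E-box CAGGTG, searched on both strands and read as CACCTG on the other, lay in 21.8% of all matched genes' promoters and in 54.5% (54 of 99) of those of genes with all rich above all poor lesions. It was present in 48.3% (129 of 267) of the separating genes found without liver libraries, in 9 of the 12 matched promoters of the junction list and in 63.6% (7 of 11) of the regulator list described next. Of the genes called higher or lower it lay in 27.2% and 20.7%. Shares were also read for 5 other motifs. CAGCTG lay in 20.2% of the separating genes' promoters against 18.9% of all, CATATG in 1.01% against 2.43%, GGGCGG in 62.6% against 61.7%, AACCNGTT in 2.02% against 2.24% and GTTAATNAT in 4.04% (4 of 99) against 0.679%. In the 12 junction promoters GGGCGG lay in 11 (91.7%), CAGCTG and AACCNGTT in 1 each and the other 2 motifs in 0. In the 11 regulator promoters GGGCGG lay in 7, CAGCTG in 3, AACCNGTT in 1 and the other 2 in 0. CAGGTG was thus not the only motif with a higher share in the junction promoters. All motifs were read on both strands, matches of different motifs may share bases, and the median GC content was 61.8% for the separating genes and 59.3% for all. A match shows only that the letters are present.

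The promoters of 4 junction genes are shown because their levels are given above, with CAGGTG or CACCTG in capitals. Each is printed 5′ to 3′ on the gene's strand. Spint2 (chr7:29281928-29282227, minus strand) held 3 matches, the second annotated start of Cldn7 (chr11:69965171-69965470, plus strand) 2, Cldn4 (chr5:134946885-134947184, minus strand) 2 and the first start of Tjp3 (chr10:81291532-81291831, minus strand) 1.
Spint2: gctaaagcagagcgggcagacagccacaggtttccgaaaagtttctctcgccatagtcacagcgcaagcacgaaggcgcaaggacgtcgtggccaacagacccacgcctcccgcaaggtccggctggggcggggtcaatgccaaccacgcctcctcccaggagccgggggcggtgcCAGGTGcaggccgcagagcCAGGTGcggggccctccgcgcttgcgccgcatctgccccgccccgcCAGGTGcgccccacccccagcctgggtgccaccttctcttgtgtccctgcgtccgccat
Cldn7: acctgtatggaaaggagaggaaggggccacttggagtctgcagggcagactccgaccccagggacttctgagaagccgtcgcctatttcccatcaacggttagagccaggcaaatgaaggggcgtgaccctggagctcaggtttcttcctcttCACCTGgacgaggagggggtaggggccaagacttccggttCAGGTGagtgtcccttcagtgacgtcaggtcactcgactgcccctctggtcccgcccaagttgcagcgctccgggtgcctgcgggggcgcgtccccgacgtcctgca
Cldn4: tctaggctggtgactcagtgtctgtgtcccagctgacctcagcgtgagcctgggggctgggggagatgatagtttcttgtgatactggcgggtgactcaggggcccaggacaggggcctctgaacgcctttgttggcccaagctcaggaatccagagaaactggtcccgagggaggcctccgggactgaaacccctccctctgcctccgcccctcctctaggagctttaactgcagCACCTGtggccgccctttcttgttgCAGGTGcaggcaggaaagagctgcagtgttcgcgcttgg
Tjp3: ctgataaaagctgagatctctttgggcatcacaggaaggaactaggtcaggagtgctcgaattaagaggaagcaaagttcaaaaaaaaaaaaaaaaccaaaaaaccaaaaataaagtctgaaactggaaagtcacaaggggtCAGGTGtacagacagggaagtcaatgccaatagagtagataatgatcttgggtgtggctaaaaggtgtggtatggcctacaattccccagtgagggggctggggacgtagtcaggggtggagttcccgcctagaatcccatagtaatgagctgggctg
The other annotated start of Cldn7, upstream of the one shown, held no match, and that of Tjp3 held 1.

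Regulators of epithelial identity were higher as a group, with 20 of 21 measured genes called higher, none lower and a median difference of 3.94. The splicing factor gene Esrp1 was 3.62 to 77.6 CPM (median 25.0) in rich and 0 to 6.04 CPM (median 0.192) in poor lesions (4.46 ± 0.88), and the 4 groups with 1 rich and 1 poor lesion (Cre-control fragments in deficient recipients, 250000 ILC2s, PBS and floxed controls, in this order here and below) gave 28.7 against 0, 37.2 against 0.0238, 14.7 against 3.67 and 34.3 against 0.0446 CPM. Its relative Esrp2 separated the sides at 4.34 to 76.4 CPM (median 16.4) against 0.279 to 2.62 CPM (median 0.985) (4.33 ± 0.54, and 3.31 ± 0.38 without liver). Grhl2, a factor that holds junction genes active, was 2.58 to 59.5 CPM (median 16.8) against 0 to 5.60 CPM (median 0.115) (4.32 ± 0.84), and the ETS factor gene Elf3 was 8.01 to 378 CPM (median 85.9) against 0.151 to 10.4 CPM (median 0.522) (5.68 ± 0.79). Ovol2, a repressor of mesenchymal genes, had no overlap at 0.239 to 8.28 CPM (median 1.94) against 0 to 0.211 CPM (median 0.0230) (5.10 ± 0.67). In poor lesions the median levels of Esrp1, Grhl2 and Ovol2 amounted to few counts, since 1 count is 0.0233 CPM at the median depth of 42.9 mega-counts.

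Müllerian regulators, which pattern the female tract, were in the same group. Pax8 was 3.30 to 55.4 CPM (median 19.1) in rich and 0 to 5.57 CPM (median 0.0889) in poor lesions (4.31 ± 0.89), and Pax2 differed by 3.94 ± 0.80. Emx2 (1.41 ± 0.29), Msx1 (1.37 ± 0.34) and Sox17 (0.76 ± 0.19), which stroma or endothelium also use, differed less and overlapped. Foxa2, the factor of uterine glands, was 0.117 to 17.3 CPM (median 0.643) against 0 to 0.570 CPM (median 0.0114), and its difference of 5.38 ± 1.07 became 2.60 ± 0.72 without the liver libraries, hepatocytes being another site of its use. Foxa1 likewise changed from 7.92 ± 1.42 to 3.74 ± 0.79, with 7 counts in all in the 12 poor lesions. Trp63, which marks stratified epithelium and also myoepithelium, was the 1 measured regulator not called, at 0.250 to 9.98 CPM (median 3.42) against 1.25 to 14.4 CPM (median 8.46) (-1.12 ± 0.49). Grhl1 was called between the sides (0.42 ± 0.13) and neither without liver (0.36 ± 0.14) nor within groups (0.47 ± 0.22).

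All 11 measured luminal markers of the uterus were called higher, with a median of 4.06, and their summed level was 302 to 2874 CPM (median 848) in rich and 2.40 to 103 CPM (median 9.17) in poor lesions, with no overlap. Without the liver libraries the rich median of this sum was 556 CPM, over the same range. The liver libraries summed to 634, 1685 and 1983 CPM on the rich side and to 1147 CPM between the sides. How much of the sum came from liver tissue was not tested. The membrane mucin gene Muc4 was 13.4 to 1661 CPM (median 140.5) against 0.238 to 21.7 CPM (median 1.42) (6.21 ± 0.92), and Muc1 was 8.46 to 263 CPM (median 61.6) against 1.72 to 14.9 CPM (median 2.69) (4.18 ± 0.47). Pigr, the receptor that carries IgA across epithelium, separated the sides at 33.9 to 1928 CPM (median 261) against 0 to 24.3 CPM (median 1.34) (6.82 ± 1.29, and 5.22 ± 1.03 without liver). The Wnt ligand genes Wnt7a (3.83 ± 0.93) and Wnt7b (4.05 ± 0.58) and the implantation gene Lpar3 (2.29 ± 0.40) were higher in rich lesions. Ihh, a progesterone target, was called between the sides (2.10 ± 0.72) but neither without liver (0.24 ± 0.57) nor within groups (1.65 ± 0.95), with medians of 0.178 and 0.183 CPM.

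Glandular, ciliated and other keratin lists moved less than the luminal list. Of 6 measured gland-related genes 4 were called higher, with a median of 1.42, and 2 within groups. Prom1 was 21.7 to 557 CPM (median 98.2) against 1.88 to 29.3 CPM (median 4.17) (4.51 ± 0.60) and Sox9 differed by 0.87 ± 0.22, the latter not called within groups (0.65 ± 0.25), while the retinoic acid enzyme gene Aldh1a1 (0.29 ± 0.40) and Lgr5 (1.22 ± 0.54) were not called. The cytokine gene Lif, needed for implantation, was 1.83 to 32.8 CPM (median 6.63) against 1.22 to 4.62 CPM (median 2.67) (1.63 ± 0.34) and not called within groups (0.78 ± 0.37). Ciliated-cell genes gave 4 of 16 higher with a median of 0.19, and the defining factor gene Foxj1 had medians of 0.474 and 0.267 CPM and was not called (0.90 ± 0.35). The axonemal gene Hydin was 0.308 to 3.60 CPM (median 1.66) against 0.0476 to 0.639 CPM (median 0.157) (2.81 ± 0.40), and Dnah5 (1.61 ± 0.41) and Dnah11 (2.36 ± 0.45) were higher at levels of a few CPM or less. Of 7 other keratins measured, 5 were called higher and 1 lower, with a median of 1.79. Without liver 3 were higher and 0 lower, and within groups 4 were higher and 0 lower. Krt7, a keratin of simple epithelia, was 6.41 to 261 CPM (median 40.9) against 2.24 to 13.4 CPM (median 5.58) (3.47 ± 0.44). Krt13 (4.69 ± 0.86) was higher at a rich median of 0.371 CPM, and Krt80 was lower (-0.49 ± 0.17) but called neither without liver (-0.40 ± 0.19) nor within groups (-0.53 ± 0.19).

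Secretory and defence products followed, with 9 of 13 measured genes called higher and a median of 4.43. Among their members Pigr, Muc1 and Sprr2f also belong to the luminal list. Lactoferrin, the iron-binding protein of uterine fluid encoded by Ltf, was 123 to 3116 CPM (median 909) in rich and 1.95 to 193 CPM (median 18.6) in poor lesions (4.69 ± 0.76). Lcn2, which encodes a protein that binds bacterial siderophores, had no overlap at 151.8 to 2140.4 CPM (median 444) against 2.62 to 65.2 CPM (median 22.1) (5.11 ± 0.68). Wfdc2, the gene of a protease inhibitor used as a marker of reproductive-tract epithelium, was 5.71 to 68.8 CPM (median 32.6) against 0 to 6.79 CPM (median 0.166) (4.43 ± 0.92), and the mucin gene Muc20 was 1.52 to 90.2 CPM (median 18.2) against 0 to 3.08 CPM (median 0.0588) (5.70 ± 0.90). The cornified envelope genes Sprr2f (5.77 ± 1.07) and Sprr2d (8.07 ± 1.36) were higher, but members of this family are nearly identical and their reads may be shared. The 4 members not called were complement C3 (1.12 ± 0.45), Clu (0.66 ± 0.37), Duox2 (-0.54 ± 0.77) and the antiprotease gene Slpi (-0.57 ± 0.28), and Slpi was called lower within groups (-1.04 ± 0.35).

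Transport genes gave 8 of 11 higher and none lower, with a median of 3.70. The phosphate carrier gene Slc34a2 separated the sides at 6.70 to 85.1 CPM (median 23.2) against 0 to 4.98 CPM (median 0.157) (4.85 ± 0.88), as did the anion exchanger gene Slc26a4 at 4.63 to 70.7 CPM (median 19.0) against 0.0668 to 3.11 CPM (median 0.240) (4.93 ± 0.70). Cftr, the chloride channel gene, was 2.53 to 65.6 CPM (median 18.6) against 0 to 7.10 CPM (median 0.166) (4.54 ± 0.85), and the water channel gene Aqp5 was 0.735 to 37.5 CPM (median 5.56) against 0.182 to 1.52 CPM (median 0.602) (3.70 ± 0.53). Aqp8 changed from 5.42 ± 0.96 to 2.96 ± 0.61 without liver. The sodium channel subunit gene Scnn1b differed by 1.89 ± 0.35, whereas Scnn1a (1.68 ± 0.46) was called neither without liver (0.24 ± 0.19) nor within groups (1.47 ± 0.59). Slc12a2 (0.13 ± 0.21) and the sodium pump subunit gene Atp1b1 (-0.23 ± 0.23), which many cell types use, were not called.

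Growth factor receptors gave 7 of 12 higher, with a median of 0.65. Erbb3, a partner of the EGF receptor, had no overlap at 23.2 to 152.1 CPM (median 48.3) against 6.37 to 18.9 CPM (median 12.3) (2.35 ± 0.36, and 1.57 ± 0.23 without liver), and the ephrin receptor gene Epha1 was 3.26 to 34.0 CPM (median 6.95) against 0.908 to 2.74 CPM (median 1.39) (2.95 ± 0.42, and 1.97 ± 0.24 without liver), also with no overlap. Fgfr2, whose epithelial splice form answers to stromal FGFs, was 28.5 to 176 CPM (median 52.4) against 3.96 to 35.3 CPM (median 16.3) (1.87 ± 0.37), though gene counts do not separate splice forms. Erbb2 (0.70 ± 0.14) and the collagen receptor gene Ddr1 (0.49 ± 0.12) differed by less. The prolactin receptor gene Prlr differed by 2.79 ± 0.69, and by 0.38 ± 0.31 and not called without liver, where it is abundant in hepatocytes. Met was not called (0.10 ± 0.15), and Egfr was not called between the sides (0.14 ± 0.23) but lower without liver (-0.41 ± 0.09).

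Of 11 measured cytokine and chemokine genes that epithelia can make, 3 were higher and 3 lower. Ccl28, a mucosal chemokine gene, was 4.44 to 98.9 CPM (median 15.3) against 0.388 to 11.3 CPM (median 1.07) (3.62 ± 0.62), Cxcl17 was 1.54 to 41.8 CPM (median 12.3) against 0.0252 to 2.86 CPM (median 0.100) (4.80 ± 0.74) and the fractalkine gene Cx3cl1 differed by 0.97 ± 0.20. The lower genes were the alarm cytokines Il33 and Tslp and the interleukin-1 antagonist Il1rn. Il33, whose protein is also the injected agent, was 10.8 to 55.8 CPM (median 31.9) in rich and 26.6 to 112.3 CPM (median 47.5) in poor lesions (-0.80 ± 0.23). In the 4 groups with 1 lesion on each side, the rich and poor values of Il33 were 31.9 and 52.9, 14.5 and 26.6, 31.9 and 112.3, and 10.8 and 42.1 CPM, lower in the rich lesion in each. Tslp differed by -1.04 ± 0.30 at a rich median of 0.662 CPM and Il1rn by -0.60 ± 0.21. None of these 3 was called without the liver libraries (Il33 -0.73 ± 0.26, Tslp -0.96 ± 0.33, Il1rn -0.51 ± 0.23), and all were called lower within groups.

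Steroid receptor genes split. The progesterone receptor gene Pgr was 34.1 to 761 CPM (median 169) in rich and 1.43 to 129.7 CPM (median 37.7) in poor lesions (2.15 ± 0.53), and the estrogen receptor gene Esr1 was 89.8 to 649 CPM (median 257) against 45.2 to 238 CPM (median 88.3) (1.29 ± 0.28). Both sides overlapped, and in those 4 groups Pgr was 86.6 against 17.3, 761 against 45.4, 261 against 90.2 and 137 against 1.43 CPM. Nr3c1, the glucocorticoid receptor gene of most cell types, was lower at 106.8 to 155 CPM (median 128) against 134.6 to 172 CPM (median 156.2) (-0.37 ± 0.08). The second estrogen receptor gene Esr2 (0.66 ± 0.78) and the membrane receptor gene Gper1 (-0.07 ± 0.17) were not called. Uterine estrogen-response genes gave 10 of 13 higher, with a median of 2.15. Of the higher genes, Pgr, Ltf, Aqp5, Aqp8, Sprr2d and Sprr2f were already counted in the lists above, so this count is not a separate result for them. Padi1, a peptidylarginine deiminase gene, was 8.92 to 1579.5 CPM (median 194) against 0.104 to 10.6 CPM (median 0.673) (6.82 ± 1.03), and the activin subunit gene Inhbb was 10.2 to 164 CPM (median 62.5) against 7.77 to 31.0 CPM (median 14.0) (2.15 ± 0.36) but not called within groups (1.35 ± 0.54). Greb1, a direct estrogen target, differed by 1.55 ± 0.47 and by 0.89 ± 0.51 within groups, where it was not called, and the cell-cycle gene Ccnd1 differed by 0.88 ± 0.22. Igf1 (0.26 ± 0.22), which stroma makes in response to estrogen, and Myc (0.15 ± 0.16) were not called.

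Mesenchymal regulators did not move as a block. Zeb2, a repressor of epithelial genes, was 201 to 558 CPM (median 392) in rich and 398 to 788 CPM (median 527) in poor lesions (-0.53 ± 0.10), and Snai1 (-0.55 ± 0.16) and the filament gene Vim (-0.52 ± 0.13) were also lower. In the 4 groups with 1 lesion on each side Zeb2 was 508 against 398, 415 against 420, 392 against 689 and 354 against 560 CPM, higher in the rich lesion in 1 of them. Zeb1 was 52.8 to 189 CPM (median 105) against 78.9 to 117 CPM (median 102) and not called (-0.03 ± 0.11), nor were Twist1 (-0.17 ± 0.13), Cdh2 (0.24 ± 0.42) and the fibronectin gene Fn1 (-0.41 ± 0.23, and -0.77 ± 0.19 and called lower without liver). Snai2 was higher (0.72 ± 0.22) but called neither without liver (0.63 ± 0.22) nor within groups (0.72 ± 0.28), and Twist2 was higher in each fit (1.08 ± 0.29).

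Of 16 stromal genes 3 were higher, 4 lower and 9 not called, with a median of -0.38. Without liver 2 were higher and 1 lower, and within groups 3 were higher and 6 lower. Hoxa10, a transcription factor gene of uterine stroma, was 11.5 to 177 CPM (median 44.7) against 3.60 to 51.6 CPM (median 9.49) (1.42 ± 0.44), Hoxa11 differed by 1.70 ± 0.61 (1.78 ± 0.64 and not called without liver) and Nr2f2, another stromal regulator, by 0.70 ± 0.16. Without deficient lesion 4 with 250000 ILC2s, 1 stromal gene was higher and Hoxa10 was not called, at 1.18. The 4 genes called lower encode matrix proteins, and other matrix genes of the list were not called. Col3a1 was 4059 to 11858 CPM (median 9064) against 6785 to 15555 CPM (median 10646) (-0.42 ± 0.13), Fbn1 differed by -0.52 ± 0.16 and Dcn by -0.63 ± 0.20, and none of these 3 was called without liver (-0.39 ± 0.14, -0.48 ± 0.16 and -0.57 ± 0.21). Postn, a matrix gene of repair tissue, was 447 to 1766 CPM (median 1012) against 749 to 3052 CPM (median 1541) (-0.75 ± 0.25) and not called within groups (-0.57 ± 0.32). The fibroblast receptor genes Pdgfra (-0.18 ± 0.15) and Pdgfrb (-0.10 ± 0.10) were not called.

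Smooth muscle genes were higher in 8 of 12 cases, with a median of 1.21, in 5 without liver, in 3 within groups and in 5 without deficient lesion 4 with 250000 ILC2s. Acta2 was 167 to 2399 CPM (median 880.2) in rich and 124 to 512 CPM (median 359) in poor lesions (1.40 ± 0.30), and the myosin gene Myh11 was 182 to 2736 CPM (median 1064) against 67.7 to 939 CPM (median 350.4) (1.35 ± 0.42), though it was not called without liver (1.31 ± 0.44) or within groups (1.85 ± 0.77). Myocd, the coactivator that switches on this programme, differed by 1.71 ± 0.42 and Mylk by 1.14 ± 0.25. The list's summed level did not follow the score throughout, since its median was 6235 CPM in the 17 lesions between, 4773 CPM in rich and 3249 CPM in poor lesions. Des (-0.58 ± 0.33) and Synm (-0.88 ± 0.41), which skeletal muscle shares, were not called. Skeletal muscle, the tissue of the body wall under the graft, had 16 genes with a median of -1.22 and 0 called by edgeR, by DESeq2 or at an unadjusted p under 0.05. Its summed level ran from 48.7 to 47462 CPM (median 8482) in rich and from 2754 to 58014 CPM (median 35002) in poor lesions, so it differed more among lesions of a side than between sides. Whether the amount of body wall taken with a lesion bears on the other differences was not tested.

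Mesothelium, the lining of the peritoneal cavity, was lower in rich lesions for 2 of 9 markers, with 4 of 9 lower without liver and within groups and 1 to 4 with 1 lesion left out. Bnc1, a transcription factor gene of this lining, was 0.208 to 7.02 CPM (median 3.60) against 2.72 to 11.5 CPM (median 6.81) (-1.09 ± 0.34) and Nkain4 differed by -0.85 ± 0.29. Msln (-0.75 ± 0.38), Upk3b (-0.70 ± 0.36) and Wt1 (-0.19 ± 0.22) were not called. Of 11 adipocyte genes 0 were called by edgeR, by DESeq2 or at an unadjusted p under 0.05, and the same held for 6 red-cell genes. Of 6 measured gut genes 4 were higher, 3 without liver and 2 within groups, and Gpa33, which separated the sides without liver, was 0.0342 to 12.5 CPM (median 0.805) against 0 to 0.169 CPM (median 0.0463) (5.18 ± 0.82), while the goblet-cell gene Muc2 was not called (-0.19 ± 0.27). The 1 measured urothelial gene, Upk1a, was not called either (-0.15 ± 0.16). The endothelial genes Pecam1 (-0.43 ± 0.10), Flt1 (-0.36 ± 0.11) and Plvap (-0.56 ± 0.16, and -0.51 ± 0.18 and not called without liver) were lower, 3 of 12 in all, with 2 lower without liver and 5 within groups. Kdr was not called (-0.14 ± 0.18), and Cdh5 was not called between the sides (-0.30 ± 0.13) but lower within groups (-0.37 ± 0.13). At these sizes the sides overlapped for each endothelial gene.

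**Figure D3:**
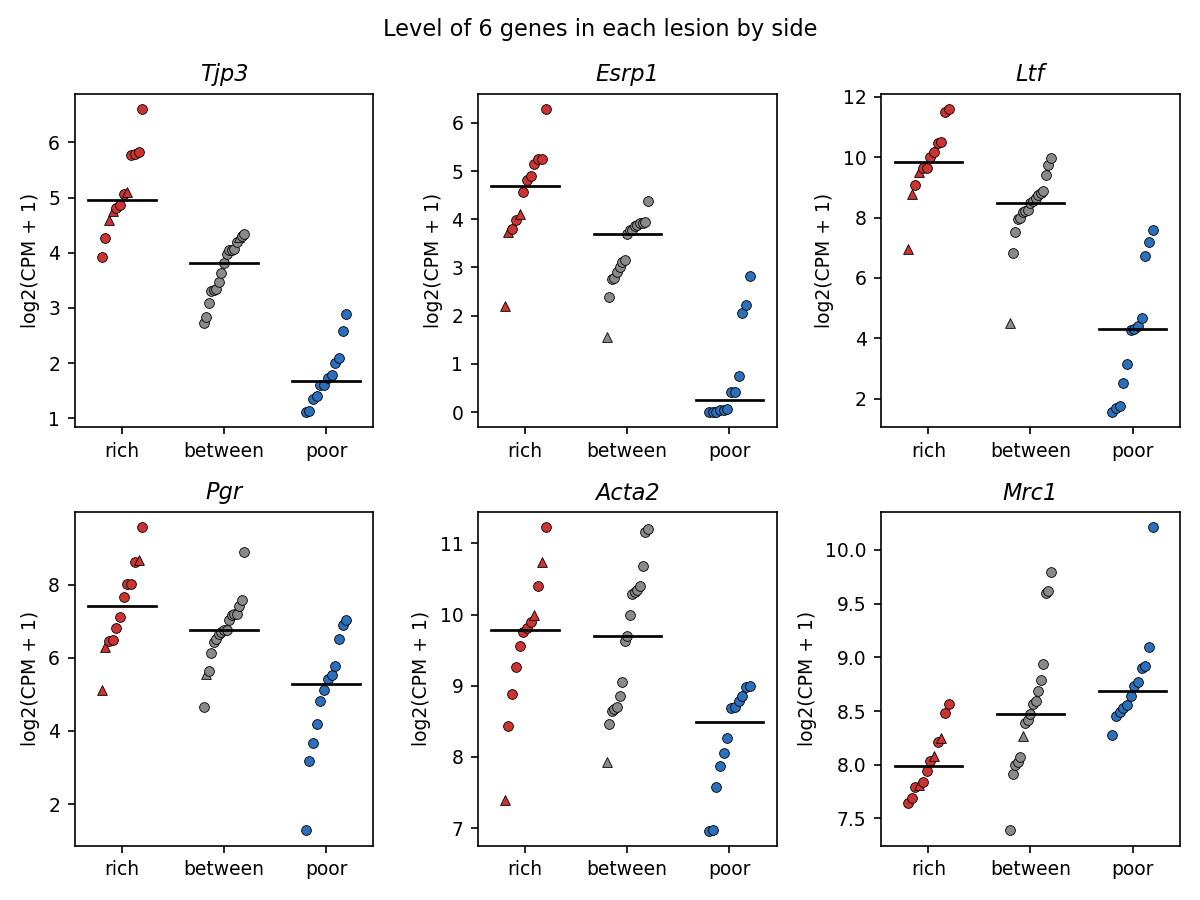
Each point is the log2(CPM + 1) level of a gene in one lesion of the rich side (red), the 17 lesions between (grey) or the poor side (blue), with bars at the medians and triangles for liver libraries. Tjp3 separates the sides, Esrp1, Ltf, Pgr and Acta2 are higher in rich lesions with overlap, and Mrc1 is lower, at a median of 253 CPM in rich against 411 CPM in poor lesions.

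Of 15 macrophage and monocyte genes 3 were called lower in rich lesions, 1 without liver, 7 within groups and 1 to 6 with 1 lesion left out, and 12 were not called between the sides. Csf1r, the growth factor receptor gene of the lineage, was 256 to 489.6 CPM (median 283) in rich and 341 to 729 CPM (median 417) in poor lesions (-0.53 ± 0.12). The complement genes C1qa (-0.51 ± 0.18) and C1qb (-0.47 ± 0.16) were also called lower, neither without liver (-0.47 ± 0.20 and -0.41 ± 0.18) and C1qa not within groups (-0.54 ± 0.19). The monocyte genes Ccr2 (-0.40 ± 0.27) and Ly6c2 (0.58 ± 0.60) were not called. Of 19 genes of the type 2 response, which IL-33 drives, 2 were lower and 1 higher. The mannose receptor gene Mrc1 was 199 to 377 CPM (median 253) against 308 to 1184 CPM (median 411) (-0.91 ± 0.17), and in the same 4 groups the rich lesion was lower each time, at 199 against 308, 228 against 375, 205 against 484 and 261 against 424 CPM. Clec10a, a lectin gene of similar macrophages, differed by -0.96 ± 0.28 and was not called without liver (-0.83 ± 0.31).

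Chil4 was the 1 type 2 gene called higher, at 0.0487 to 1737 CPM (median 18.2) against 0.0254 to 95.4 CPM (median 0.963) (4.62 ± 1.53), while its near-identical relative Chil3 was not called at 4.80 to 3125 CPM (median 69.3) against 27.2 to 6246 CPM (median 556) (-1.20 ± 0.98). Because reads can be shared between the 2, both values are uncertain, and Chil4 lost its call when 1 of 5 lesions was left out, with 3.32 without floxed control 2 and 4.50 to 4.52 without floxed control 3, deficient fragment 1 in a Cre-control recipient, Cre-control fragment 1 or deficient lesion 3 with 250000 ILC2s. The ILC2 cytokine genes Il5 (-0.55 ± 0.71) and Il13 (-0.10 ± 0.80) had medians under 1 CPM on both sides and were not called, and Retnla (-0.70 ± 0.83) and Arg1 (-0.24 ± 0.55), the latter also made by hepatocytes, were not called either. Between the sides edgeR called 0 of 12 T-cell genes (2 higher at an unadjusted p under 0.05, and DESeq2 called 7 lower) and 0 of 10 B-cell and plasma-cell genes (1 lower at an unadjusted p under 0.05 and 1 by DESeq2). Without Cre-control fragment 3 in a deficient recipient edgeR called 6 T-cell genes lower, with the list's median moving from 0.56 to -0.94, and without Cre control 4 it called 2 B-cell and plasma-cell genes lower. Of 10 neutrophil genes 1 was higher (Ly6g, 1.20 ± 0.34, at a rich median of 0.506 CPM) and S100a8 was not called (0.12 ± 0.43). Of 10 mast-cell genes, Gata2 was higher at 12.5 to 130.3 CPM (median 41.5) against 6.08 to 40.0 CPM (median 11.1) (1.48 ± 0.31); uterine stroma also uses this factor, and the mast-cell proteases Cpa3 (-0.14 ± 0.32) and Cma1 (-0.26 ± 0.26) were not called.

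Proliferation genes were higher in 11 of 15 cases, with a median of 0.80, in 13 without liver and in 3 within groups. With 1 lesion left out the count was between 3 and 13, and it moved by more than 1.5 times in 14 of 24 such fits. Top2a, a topoisomerase gene of dividing cells, was 24.1 to 218 CPM (median 99.5) in rich and 17.2 to 85.3 CPM (median 56.0) in poor lesions (0.90 ± 0.30), and by 0.68 ± 0.26 within groups it was not called. The replication helicase genes Mcm2 (0.70 ± 0.19) and Mcm5 (0.93 ± 0.23) and the mitotic kinase gene Aurkb (0.78 ± 0.23) were the 3 called in each fit. Mki67 was not called (0.65 ± 0.27). Interferon-response genes were higher in 7 of 15 cases, with a median of 0.84, in 9 without liver and in 4 within groups. Their summed level was 2423 CPM in 1 rich lesion, Cre-control fragment 3 in a deficient recipient, and at most 836 CPM in the other 11. Without it 5 of the 15 were higher, with a median of 0.65. Ifi44 was 5.10 to 62.3 CPM (median 15.3) against 2.06 to 12.6 CPM (median 6.10) (1.62 ± 0.41), Isg15 3.35 to 21.6 CPM (median 7.17) against 1.02 to 6.35 CPM (median 2.84) (1.39 ± 0.35), and the tetherin gene Bst2 22.6 to 95.7 CPM (median 41.2) against 8.86 to 31.4 CPM (median 19.8) (1.16 ± 0.20). Mx1 (0.74 ± 0.38) was not called.

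A rule on size named the genes with the largest differences among called genes with no overlap and a mean of at least 1 CPM on the higher side. Those reported here were Hsd17b2, Slc27a2, Serpina1e, Cpn1, Pigr, Urah, Slc5a8, Slc5a1, Ckmt1, Atp7b and Sowahb. Several are liver genes and moved most when the liver libraries were left out. Hsd17b2, whose enzyme inactivates estradiol, was 0.104 to 144 CPM (median 2.46) against 0 to 0.0441 CPM (median 0), and its difference of 11.04 ± 1.62 became 7.08 ± 0.90, values that depend on the prior count because the 12 poor lesions held 5 counts in all. Slc27a2, a fatty acid importer gene, went from 9.04 ± 1.41 to 4.71 ± 0.71, Cpn1 from 8.74 ± 1.33 to 4.76 ± 0.63, Atp7b from 5.70 ± 0.97 to 2.25 ± 0.36, and Serpina1e, 1 of several near-identical antitrypsin genes, from 8.77 ± 1.17 to 6.71 ± 0.81. The sodium-coupled carrier genes Slc5a8 (6.14 ± 0.97 and 6.49 ± 0.89) and Slc5a1 (6.13 ± 0.75 and 6.33 ± 0.75) and the mitochondrial creatine kinase gene Ckmt1 (5.89 ± 0.81 and 6.23 ± 0.72) hardly moved. Slc5a1, the sodium-glucose cotransporter gene, was 1.12 to 18.2 CPM (median 3.29) against 0 to 0.353 CPM (median 0.0341). Urah and Sowahb became 5.78 ± 0.74 and 4.83 ± 0.48.

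Under the same rule without the liver libraries, applied after the values were seen, the leading genes were Padi1 (7.17 ± 0.97), Hsd17b2 (7.08 ± 0.90), Fam3b (6.83 ± 0.77), Serpina1e (6.71 ± 0.81), Atp2c2 (6.62 ± 0.61), Dmbt1 (6.56 ± 0.88), Muc4 (6.56 ± 0.89), Slc5a8 (6.49 ± 0.89), Tmprss11g (6.43 ± 0.89), Fxyd4 (6.34 ± 0.79), Slc5a1 (6.33 ± 0.75) and the chloride channel accessory gene Clca3b (6.29 ± 0.87). Atp2c2, a calcium pump gene of secretory epithelium, was 1.80 to 68.3 CPM (median 14.2) in the 9 rich lesions without liver and 0.0446 to 0.739 CPM (median 0.136) in poor lesions. Dmbt1, a mucosal scavenger receptor gene, was 0.173 to 15.7 CPM (median 1.24) against 0 to 0.110 CPM (median 0.0126).

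Among genes lower in rich lesions none qualified by the same rule. Tcfl5 was the 1 gene with every rich lesion below every poor one, at 0.104 to 0.535 CPM (median 0.231) against 0.613 to 1.94 CPM (median 0.746) (-1.69 ± 0.25), levels too low for the rule. The following genes were chosen after their values were seen. They come from genes called lower between the sides, without liver and within groups, above a cut on the poor-side mean and ranked by size of difference. Their calls in each fit were therefore set by the choice. Tnn, which encodes the matrix protein tenascin-N, was 0.346 to 9.11 CPM (median 2.75) against 4.00 to 29.3 CPM (median 10.1) (-1.83 ± 0.44). F13a1, a transglutaminase gene of tissue macrophages, was 44.8 to 132 CPM (median 69.4) against 115 to 315 CPM (median 149) (-1.04 ± 0.21), and Col24a1, a fibrillar collagen gene, was 46.6 to 297 CPM (median 121.7) against 139.6 to 549 CPM (median 232) (-1.04 ± 0.29). The homeobox genes Meox2 (-1.16 ± 0.27) and Hoxc8 (-1.01 ± 0.23) and the factor gene Ebf3 (-1.05 ± 0.23) were lower too, as was the monooxygenase gene Fmo2 at 15.3 to 77.9 CPM (median 45.1) against 52.6 to 184 CPM (median 98.7) (-1.27 ± 0.26).

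The 17 lesions between the sides offered libraries that the rich-poor contrast had not used. Their score was read from these same libraries, so a slope shows only that a gene varied together with the 5 score genes. Its p-value is not support from separate data. Within the 17 lesions the slope of each gene on the score was tested across all 21244 genes with edgeR. With rising score 72 genes (0.339%) rose and 366 (1.72%) fell. The liver-bearing wild-type lesion 4 had a score near the low end, 4.45, and without it 35 genes (0.165%) rose and 111 (0.523%) fell, 26 of the 35 and all of the 111 being among the first calls. The count of rising genes was 46 without floxed control 1 and 39 without deficient PBS lesion 1, and the count of falling genes was 562 without deficient lesion 2 with 250000 ILC2s. That lesion, the lowest-scoring of the 17, held the next most liver RNA, 0.108% of counts. With both it and the liver lesion left out 1 gene rose (Hmga2, by 1.78 ± 0.27) and 6 fell (edgeR, 433 rising and 377 falling at an unadjusted p under 0.05). The 6 were Cela2a, Cpa1, Ctrb1, Gp2, Reg1 and Try4, all known from pancreas, with fitted slopes of -11.26 to -21.4. These genes were named after their values were seen. With genes kept only at 1 CPM or more in 8 of the 17 lesions, edgeR called 0 genes in either direction, with a smallest adjusted p of 0.0857 and 448 rising and 455 falling at an unadjusted p under 0.05. DESeq2, without that filter, called 173 rising and 562 falling. The score spans only 3.96 to 5.20 in these lesions.

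The adjusted p-values below describe how closely a gene varied with the 5 score genes in the same libraries and are not separate support. Esrp1 rose by 1.97 ± 0.34 log2 units per unit of score (edgeR, adjusted p = 0.011), and by 1.78 ± 0.27 without the liver lesion (adjusted p = 0.0076). By the rule of smallest p, the other 5 rising genes were Ano9 (2.86 ± 0.48), the homeobox gene Dlx5 (2.11 ± 0.36), Bspry (1.88 ± 0.32), Tmem54 (4.66 ± 0.82) and Clec2f (2.46 ± 0.44), each with an adjusted p of 0.011 and each called without the liver lesion. Grhl2 rose by 1.78 ± 0.36 (edgeR, adjusted p = 0.014), Pax2 by 2.31 ± 0.45 (0.011), and Wfdc2 by 2.32 ± 0.45 (0.011), and these 3 also passed without the liver lesion. Of the junction genes Cldn7 rose by 1.87 ± 0.45 (edgeR, adjusted p = 0.036) and Marveld3 by 1.53 ± 0.31 (0.013), while Tjp3 did not pass (0.93 ± 0.42, adjusted p = 0.59). The liver lesion held 18.5 CPM of Tjp3 at its score of 4.45. The other lesions had 5.61 to 9.08 CPM at scores of 3.96 to 4.59. They had 7.47 to 18.7 CPM at 4.72 to 4.90 and 13.1 to 19.1 CPM at 4.94 to 5.20. Pgr rose by 2.33 ± 0.49 (edgeR, adjusted p = 0.016), and by 2.28 ± 0.52 without the liver lesion, where it missed the threshold (0.058). The first 6 falling genes were Hsd3b3, F13b, Mug2, Cyp2c68, Acnat2 and Dmgdh, known from liver, with fitted slopes of -18.44 to -23.45. Without the liver lesion their slopes were -6.53 to -8.00, and all 6 were still called lower (edgeR, adjusted p from 0.00082 to 0.041). With deficient lesion 2 with 250000 ILC2s left out as well, none of the 6 was called, at slopes of -5.91 to -9.66. In that fit the slopes were 2.23 ± 0.37 for Esrp1 (edgeR, adjusted p = 0.051), 2.17 ± 0.49 for Grhl2 (0.21), 2.24 ± 0.59 for Pax2 (0.44) and 2.99 ± 0.68 for Wfdc2 (0.21). None of the rising genes named above passed in it, and each kept a positive slope. Acta2 (0.30 ± 0.81), Mrc1 (-0.21 ± 0.50), Zeb2 (-0.10 ± 0.21) and Il33 (-0.58 ± 0.37) did not pass in these lesions.

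**Figure D4:**
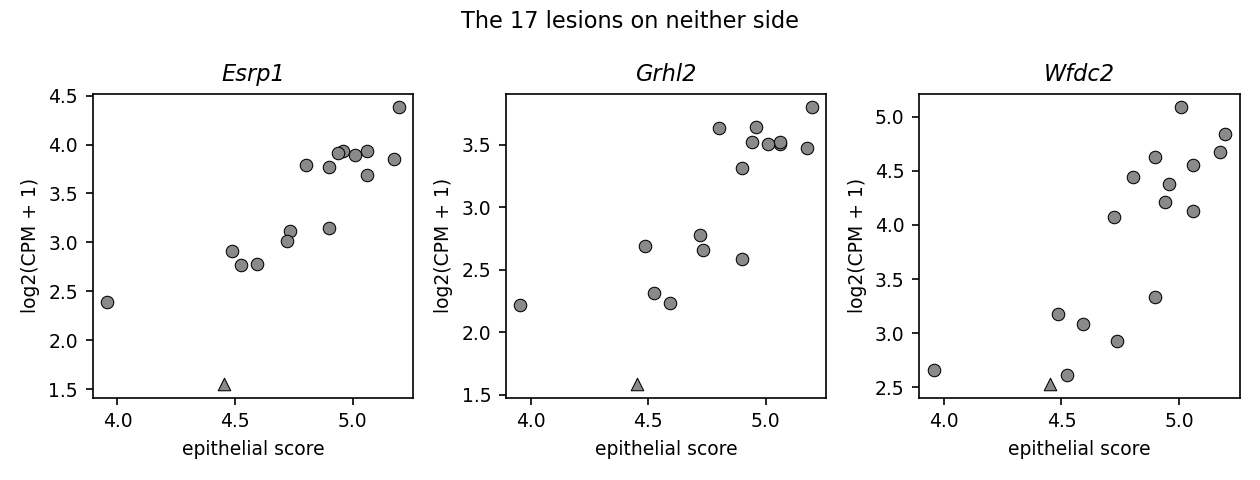
The log2(CPM + 1) level of Esrp1, Grhl2 and Wfdc2 is plotted against the epithelial score in the 17 lesions on neither side, with a triangle for the liver library. The points rise from left to right over scores of 3.96 to 5.20, and the liver lesion, at 4.45, has the lowest level of each gene.

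The rich lesions were not alike. The Cre-control fragment in a deficient recipient (replicate 3) held a summed T-cell level of 554 CPM and an interferon-response level of 2423 CPM, while the other 11 rich lesions had at most 35.6 CPM and 836 CPM. Medians of the side were 23.2 CPM for T-cell genes and 346 CPM for interferon-response genes. Smooth muscle was highest, at 10865 CPM, in the deficient lesion 4 with 250000 ILC2s, where skeletal muscle was 93.9 CPM. Skeletal muscle was also low in deficient lesion 1 with 120000 ILC2s (48.7 CPM) and Cre control 3 (61.0 CPM), and it reached 47462 CPM in floxed control 2. Type 2 genes summed to 5737 CPM in Cre control 4 and 5025 CPM in floxed control 2, and to 425 CPM in the PBS lesion. Luminal genes spanned 302 CPM in that PBS lesion, the lowest of the side, to 2874 CPM in the T-cell-bearing lesion. On the poor side the luminal sum was 61.4 CPM in the PBS lesion and 103 CPM in added-PBS lesion 3, and at most 58.9 CPM in the other 10.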

How the data were processed

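Whole-lesion RNA was isolated with a Norgen kit and made into libraries with NEBNext UltraExpress, per the labels' protocols. The authors deposited 1 table of raw read counts for 21249 genes in 41 libraries, and the submitters' processing notes name Trimmomatic, STAR, HTSeq, edgeR, limma and GRCm38, with versions and strand setting not given in the sources used here. No gene had fewer than 411 counts in all, so genes with lower totals are not in the table used here. Totals ran from 28.9 to 70.5 mega-counts (median 42.9), and 1 count was 0.0233 CPM at the median.

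Groups came from the labels. Recipients of lesions outside the crossed groups were taken to have the fragment's genotype, and because the labels do not state that each replicate came from its own animal, the tests take only the spread among these samples into account. Every pair of libraries within a group differed by more than counting noise, with chi-square values of 19.7 to 1310 times their degrees of freedom over 58 pairs. The members and the 31 gene lists (386 genes, 358 measured) were chosen with earlier results of these data known.

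Genes were fitted with edgeR 4.0.16 (TMM, robust quasi-likelihood test, Benjamini-Hochberg adjustment over 21244 genes, limma 3.58.1, R 4.3.3) in 3 ways: 12 rich against 12 poor libraries, the same sides with labelled group as a term over all 41, and a slope on the score in the other 17. The score was tested over samples by 100000 permutations, or all 70 for 4 against 4 (Python 3.11.15, scipy 1.17.1, numpy 2.4.6, pandas 2.3.3). On simulated counts, 77% of genes changed by 1 log2 unit and 92% of those changed by 2 were called between the sides with 7.14% of calls false, and 46% and 81% in the slope with 4.51% false. Changed genes had a mean of at least 1 CPM, and sides and score were fixed before counts were drawn gene by gene. These shares therefore do not give the false share of the real calls, whose sides and score came from the same libraries. Named genes were list members, the 12 largest differences in each direction among called genes without overlap and with at least 1 CPM on the higher side, and the 6 smallest p-values of each slope direction. Predicted genes and immune receptor segments were not named, and a few genes that the rules select are not reported here.

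Alternatives were DESeq2 1.42.0, its size factors, filters on low counts, other scores, 8 libraries a side, a replicate block, a recipient term and leaving out each library. Alternatives chosen after seeing the data rechose the sides without liver libraries, left out the added-PBS group, left out of the slope the liver library and the next in liver RNA, and scored by Krt19, Epcam and Cdh1 alone. The 5 score genes were left out of every result.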

Additional observations from a re-analysis of the deposited data

How the results depend on the processing

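Between the sides 4450 genes were called, 3229 higher and 1221 lower. Without the liver libraries 2896 were called (694 lower), with sides rechosen without them 2765 (1953 higher, 812 lower), without the added-PBS group 2685 (1934 and 751) and with the score from Krt19, Epcam and Cdh1 2483 (1778 and 705). With labelled group as a term 1964 were higher. Each of these fits used fewer or other libraries, and the cause was not tested. Leaving out 1 library gave 3697 to 5024 calls, 2646 to 3502 higher and 908 to 1788 lower. DESeq2 called 5141, filters on low counts 3304 and 3791, 8 libraries a side 3963 and the TMM-scaled score 3954, all within 1.5 times.

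In the 17 lesions between, 438 genes were called, 72 of them rising. DESeq2 called 735 (173 rising), the filter at 1 CPM in 8 libraries 0 (0 rising), the recipient term 289 and the fit without the liver library 146 (35 rising), and without it and the library next in liver RNA 7 (1 rising), an alternative chosen after seeing the data. Leaving out 1 library gave 146 to 630 calls and 35 to 77 rising.

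Replicate numbers did not pair the samples: same-numbered libraries of different groups correlated between -0.733 and 0.872 (median 0.0157, 191 pairs), and 7 of 41 libraries matched best with their own number. With a replicate block 3186 genes were called between the sides, and 153 in the 17 lesions, 1 of them rising.

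The score difference between deficient and competent recipients ran from -0.429 to 0.146 with 1 library left out, and its sign turned in 5 cases (0.0418, 0.143, 0.146, 0.104 and 0.0658). The F statistic over groups ran from 2.05 to 3.37, and the difference between IL-33 and PBS from 0.777 to 1.80.

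Of 191 genes followed, none called between the sides changed sign with 1 library left out. The call was lost in 14: in Hoxa10 (1.18) and Myh11 (1.20) without deficient lesion 4 with 250000 ILC2s, in Snai2 (0.59 and 0.60) without that lesion or deficient lesion 2 with IL-33, in Chil4 and Grhl1 in 5 cases each, and in C1qa, C1qb, Hoxa11, Ihh, Il1rn, Krt80, Nkain4, Postn and Top2a in 9 to 16 of 24. A call was gained in 5: Ccr2 (-0.77) and Slpi (-0.73) without Cre-control fragment 3, Cdh5 (-0.36) without deficient fragment 1 in a Cre-control recipient, and C3 (1.22 and 1.23) and Foxj1 (1.01 and 1.05) in 2 cases each. In 39 genes the difference moved by more than 1.5 times in some case. Hsd3b3 turned to -0.076 with the sides rechosen without liver libraries and Slc27a2 to -0.22 with the score from 3 genes. Depth limits the poor side, where many epithelial genes had medians of a few counts, since 1 count is 0.0233 CPM at the median total.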
